A study of Mus musculus with 64 samples.

Results

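Germ cells that lacked MORC1 were compared with those of littermate controls at E18.5, a late embryonic day, in 4 RNA-Seq libraries of the 64 samples analysed. The members were chosen by their labels alone: 2 libraries labelled Morc1 KO, from homozygous Morc1tg/tg embryos, and 2 labelled Morc1 het, from heterozygous Morc1tg/+ embryos. Each library was made from the sorted germ cells of 1 mouse, so the p-values measure the spread between single mice. The Morc1tg allele carries a tyrosinase transgene whose insertion removed exons 2 to 4 of Morc1, and the Morc1tg/+ controls carry 1 copy of that allele too. All mice were of a mixed background with the Oct4-IRES-eGfp reporter, and the germ cells were sorted on its green fluorescence. Cells of the same 2 genotypes were also sequenced at E16.5 (4 libraries), at postnatal day 2.5 (P2.5, 5 libraries) and at P10.5 (7 libraries, sorted on surface markers and side scatter in place of the reporter).

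MORC1 is a nuclear ATPase of the GHKL family that is needed to keep transposons silent in the male germline. Male germ cells stop dividing before birth, having erased most of their DNA methylation, and then lay down new methylation, over transposons with the help of PIWI proteins and their small RNAs, the piRNAs. At E18.5 this de novo methylation is under way. The long terminal repeats (LTRs) of many transposons act as promoters, and a gene that lies next to one can be transcribed from it.

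The Morc1tg/+ libraries held 4007833 and 3898526 reads on genes (replicates 1 and 2), and the Morc1tg/tg libraries 2698197 and 2884832. Of 26385 genes listed, 18440 had a read in at least 1 of the 4 libraries and 14422 had enough reads to be tested. Morc1tg/+ replicate 2 stood apart: it detected 14267 genes, against 15248 to 16548 in the other 3 libraries, and 619 genes with at least 20 reads in its partner were at 0 in it, against 187 to 260 such genes in the others. Its level of the gene AY036118 was 201 CPM (reads scaled to the depth of the library), against 2206 to 2869 CPM. The results that rest on this library are given without it below, and its part in the other values was not tested.

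The allele was checked first on Morc1 itself (ENSMUSG00000022652, mm9 chr16:48431350-48631018). It had 524 and 523 reads in the 2 Morc1tg/+ libraries and 97 and 44 in the 2 Morc1tg/tg libraries. As RPKM values, a level scaled to exon length and to depth, these were 26.1 and 22.4 against 7.03 and 2.38. Both mutant libraries lay below both controls, as the labels would have it, and reads on exons outside the removed part can remain. The level was 24.2 ± 2.59 RPKM in Morc1tg/+ and 4.71 ± 3.29 in Morc1tg/tg (n = 2 libraries each, ± SD). The log2 fold change was -2.32 (SE 0.413). It did not pass edgeR's quasi-likelihood test among 14422 genes (adjusted p = 0.139), and passed by DESeq2 (adjusted p = 1.13e-07) and in edgeR when the spread was shared over the 13 libraries sorted on the reporter (adjusted p = 0.00186). Tyr, the gene of the inserted transgene, was at 0.671 and 0.456 RPKM in the controls and 2.47 and 0.847 in the mutants, and did not pass in edgeR (log2 fold change 1.61, SE 1.10, adjusted p = 0.906).

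Across all genes, 6 were higher in Morc1tg/tg and 0 were lower at an adjusted p under 0.05 (edgeR). These 6 of 14422 are 0.0416% of the genes tested, and 0% were called lower. Without adjustment 526 genes had p under 0.05 in the higher direction (3.65%) and 369 in the lower (2.56%). The genes called were the histone gene Hist1h2bc, the chloride channel accessory gene Clca4, the teneurin Odz4, the adhesion molecule Chl1, the kinase gene Cdkl4 and the noncoding RNA gene 2610005L07Rik. With 2 mice per genotype, the same fit on simulated counts recovered 7% of genes changed by log2 1 and 40% of those changed by log2 2. It also called 5 unchanged genes there. DESeq2 called 271 genes (1.81% of the 14949 it tested), 188 higher (1.26%) and 83 lower (0.555%). With the spread shared over 13 libraries, edgeR called 54 genes (0.316% of 17088), 28 higher (0.164%) and 26 lower (0.152%). The median log2 fold change of all genes was 0.0164.

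**Figure D1:**
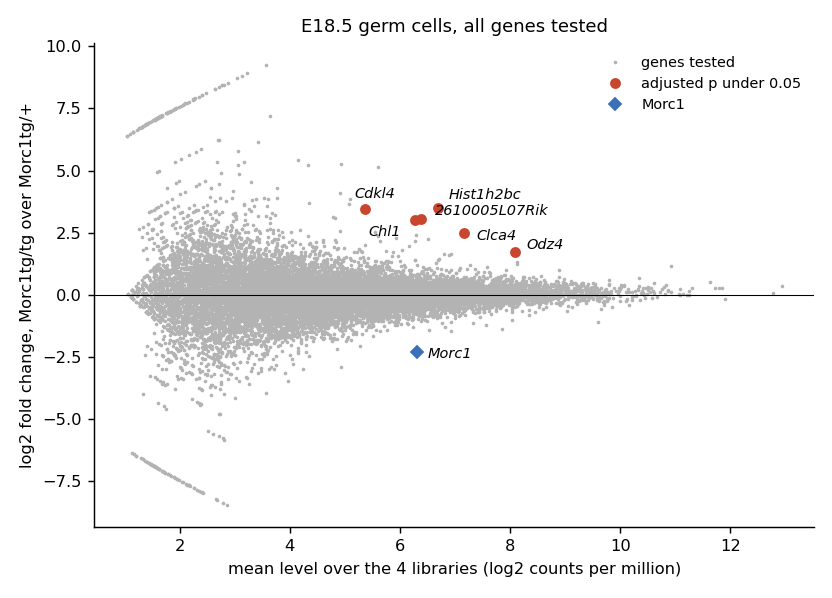
Log2 fold change of Morc1tg/tg over Morc1tg/+ at E18.5 against the mean level (log2 CPM) for each of the 14422 genes tested, 1 point per gene. The 6 genes past the threshold all lie above 0, between 1.72 and 3.50, and Morc1 lies at -2.32; the oblique rows of points at the edges are genes at 0 in both libraries of a genotype, whose fitted values depend on the prior count.

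Hist1h2bc, 1 of the genes for the core histone H2B (mm9 chr13:23776068-23784357), had the highest RPKM of the 6 and the largest estimated change. Cdkl4 came close (log2 3.44) and ranked above it without Morc1tg/+ replicate 1 (3.36 against 3.28) and without Morc1tg/tg replicate 2 (3.47 against 3.36). Chl1 also ranked above Hist1h2bc without Morc1tg/+ replicate 1 (3.34). Hist1h2bc stayed first without Morc1tg/+ replicate 2 and without Morc1tg/tg replicate 1. It was at 11.5 and 13.8 RPKM in Morc1tg/+ and 133 RPKM in both Morc1tg/tg libraries, and its reads rose from 56 and 78 to 446 and 594. The 2 genotypes lay far apart, and in RPKM their replicates lay close together, with means of 12.6 ± 1.62 and 132.8 ± 0.418. In CPM the replicates were further apart, at 13.97 and 20.01 in Morc1tg/+ and 165.3 and 205.9 in Morc1tg/tg. The rise was 11.3-fold (log2 3.50, SE 0.317, adjusted p = 0.00964, edgeR). Of the 63 genes of the replication-dependent histone clusters and their Hist-named relatives, 33 were tested and only Hist1h2bc was called. The other 32, looked up after this gene was seen, had a median log2 fold change of 0.271, with 18 above 0 and 14 below, and none had an unadjusted p under 0.05 in edgeR. Histone genes share coding sequence, so reads can be lost or split between copies.

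Clca4 belongs to a family of secreted modulators of chloride channels (mm9 chr3:144485587-144512321). It was at 8.72 and 5.73 RPKM in the controls and 39.5 and 35.5 in the mutants, with no overlap. The rise was 5.68-fold (log2 2.51, SE 0.254, adjusted p = 0.0133, edgeR). Cdkl4, a cyclin-dependent kinase-like gene (ENSMUSG00000033966, mm9 chr17:80922890-80963174), was at 1.34 and 1.29 RPKM in the controls and 14.9 and 11.8 in the mutants. Control levels were nearly equal in RPKM and at 6.49 and 7.44 in CPM. The rise was 10.9-fold (log2 3.44, SE 0.437, adjusted p = 0.0328, edgeR).

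Odz4 and Chl1 encode cell-surface proteins best known from neurons, a teneurin and a member of the L1 family of adhesion molecules. Odz4 (mm9 chr7:103319754-104059603) was at 6.14 and 4.47 RPKM in Morc1tg/+ and 16.3 and 15.6 in Morc1tg/tg. It had the smallest change of the 6, 3.28-fold (log2 1.72, SE 0.197, adjusted p = 0.0203, edgeR). Chl1 (mm9 chr6:103460870-103699671) was at 1.60 and 0.905 RPKM in the controls and 8.65 and 9.54 in the mutants. The genotypes did not overlap for either gene, and Chl1 rose 8.08-fold (log2 3.01, SE 0.359, adjusted p = 0.0228, edgeR).

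2610005L07Rik is a noncoding gene annotated at mm9 chr8:19863337-20020413. It was at 2.82 and 2.13 RPKM in the controls and 17.8 and 19.9 in the mutants, an 8.36-fold rise (log2 3.06, SE 0.331, adjusted p = 0.0158, edgeR). Its annotated span overlaps that of 6820431F20Rik on the same strand, and 4790 of its 8649 exon bases (55.4%) match that gene at 95% identity or more. The 2000 bases before the 2 starts are 98.9% identical over 1979 aligned bases. Reads of the 2 copies can therefore be split or lost, and their levels are uncertain. The level of 6820431F20Rik was 0.485 and 0.668 RPKM in the controls and 5.18 and 8.06 in the mutants (log2 fold change 3.64, SE 0.562, adjusted p = 0.0878, edgeR).

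All 6 genes were called in both fits that left out a control library and in each alternative fit that used the 4 libraries, except that Hist1h2bc was not tested where genes of RNA lacking a poly(A) tail were left out. No gene was called without Morc1tg/tg replicate 1 or without Morc1tg/tg replicate 2 (edgeR, with 978 and 572 genes at an unadjusted p under 0.05), fits in which the lone mutant library is assumed to vary like the controls.

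**Figure D2:**
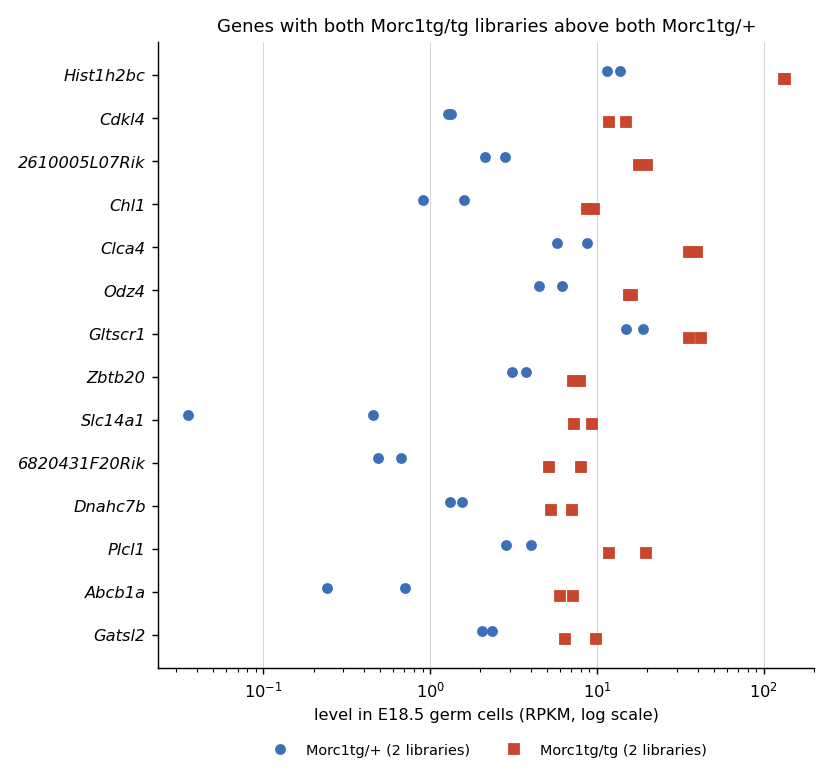
Level in RPKM (log axis) of 14 genes in each of the 4 E18.5 libraries, circles for Morc1tg/+ and squares for Morc1tg/tg; the first 6 genes passed the threshold in the E18.5 fit and the other 8 did so by DESeq2 and where the spread was shared over 13 libraries. No circle reaches a square of the same gene, and the other 8 were chosen by that order. The gap is widest for Slc14a1, at 0.452 and 0.0354 RPKM in Morc1tg/+ against 9.29 and 7.30 in Morc1tg/tg.

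A further 8 genes did not pass the E18.5 fit (adjusted p from 0.0581 to 0.100, edgeR). They were chosen for passing with the spread of 13 libraries and for having both mutant libraries above both controls. Of all genes tested, 17.3% had that order, and no support is drawn from it for the 8. They also passed by DESeq2. They include 2 membrane transporters. Slc14a1, a urea transporter, had 11 and 1 reads in Morc1tg/+ and 155 and 163 in Morc1tg/tg (log2 fold change 5.25, SE 0.788). Abcb1a, the drug efflux pump P-glycoprotein, was at 0.242 and 0.704 RPKM in the controls and 7.19 and 6.03 in the mutants (log2 fold change 3.84). The rest of the group are Dnahc7b, an axonemal dynein heavy chain (log2 fold change 2.23), Plcl1, a catalytically inactive phospholipase C (2.29), Gatsl2 (1.98), and 2 nuclear proteins, Gltscr1 (1.31) and the zinc finger repressor Zbtb20 (1.25). Gltscr1 was at 18.9 and 15.0 RPKM in the controls and 41.8 and 35.5 in the mutants. The last of the 8 is 6820431F20Rik, described above.

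The next list was drawn by the study from DNA methylation at its other stages. It holds genes with a region of low methylation in Morc1tg/tg within 1 kb of their start. The list is not defined by LTRs, and the study describes an LTR just upstream of the start for Neb, Tmc2 and Cdkl4. The list was chosen within the same study and is not independent evidence of a direction. Of 18 such genes, 15 were tested and 1, Cdkl4, was called higher (0.0416% of all genes tested were). The list had a median log2 fold change of 0.428, with 10 of 15 above 0, against 0.0164 and 51.1% for all genes. With the spread of 13 libraries 4 were higher, against 0.164% of all genes: Cdkl4, the transmembrane channel gene Tmc2, the acetyltransferase gene Kat2b and the serine protease inhibitor gene Serpina3c. Tmc2 was at 0.988 and 0 RPKM in the controls and 16.7 and 13.9 in the mutants (log2 fold change 5.15, SE 0.884, adjusted p = 0.120, edgeR). Serpina3c had 0 and 2 reads in the controls and 79 and 30 in the mutants, and Kat2b was at 4.19 and 2.49 RPKM against 11.6 and 8.59.

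The same stretch of sequence lies shortly before the starts of Cdkl4, Tmc2 and Neb, which codes for the muscle protein nebulin. These genes, for which the study describes an LTR just upstream of the start, were set before the search given below. The stretch is the longest match between the upstream sequences of Cdkl4 and Neb, and whether it lies within those LTRs was not looked up. In that search Cdkl4, Tmc2 and Neb were also the 3 tested genes with the stretch nearest to their start. Each line is 125 bases of mm9 in the direction of the Cdkl4 transcript, 5′ to 3′, with capitals where all 3 copies have the same base, at 104 of the 125 positions.
Cdkl4, chr17:80963222-80963346, minus strand: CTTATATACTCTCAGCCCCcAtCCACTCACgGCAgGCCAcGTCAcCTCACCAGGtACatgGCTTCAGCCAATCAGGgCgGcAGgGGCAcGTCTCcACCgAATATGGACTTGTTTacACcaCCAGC
Tmc2, chr2:130020516-130020640, minus strand: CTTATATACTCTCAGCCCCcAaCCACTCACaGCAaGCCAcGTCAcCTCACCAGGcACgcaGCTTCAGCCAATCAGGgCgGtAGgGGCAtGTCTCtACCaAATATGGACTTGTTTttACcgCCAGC
Neb, chr2:52194376-52194500, minus strand: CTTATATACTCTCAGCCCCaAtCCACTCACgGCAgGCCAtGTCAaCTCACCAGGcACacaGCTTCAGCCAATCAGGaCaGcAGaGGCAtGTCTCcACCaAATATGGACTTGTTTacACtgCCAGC
The stretch ends 47 bases before the start of Cdkl4 and 57 bases before that of Neb, both in the direction of the gene, and lies 289 bases before the start of Tmc2 in the opposite direction. The Tmc2 copy is 88.8% and the Neb copy 89.6% identical to that of Cdkl4. The values of the 3 genes differed: Cdkl4 rose, Tmc2 had both mutant libraries above both controls, and Neb was at 16.1 and 19.23 RPKM in the controls and 17.9 and 15.8 in the mutants, with the genotypes overlapping (log2 fold change 0.03, adjusted p = 1.00, edgeR). Extl1, which was not tested, has 107 bases of it 205 bases before its start and was at 0.329 and 0.378 RPKM in the controls and 0 in both mutants. A search of the 2000 bases before each start for at least 100 bases at 80% identity found the stretch at 24 of 26343 genes (0.0911%). Of these, 9 were tested, 7 had a log2 fold change above 0, their median was 0.356 and 1 was called, beside 51.1%, 0.0164 and 0.0416% for all genes tested. The 1 called was Cdkl4 itself, from which the stretch searched for was taken. Tmc2 and Neb, set before the search like Cdkl4, are among the 9 too. No conclusion is drawn from these counts or the median, since the 3 genes were chosen, and Cdkl4 called, before the search. A match describes the sequence and does not show that transcription starts there.

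No gene was called lower in the E18.5 fit, so the lower side is given as values. Both mutant libraries lay below both controls for 21.1% of all genes tested. Besides Morc1, the 13 genes named here were chosen for this order and for passing with the spread of 13 libraries. They also passed by DESeq2, and none of the 13 was called at E16.5 or P2.5 (edgeR). Glis3, a zinc finger transcription factor, was at 16.52 and 10.2 RPKM in Morc1tg/+ and 5.61 and 3.49 in Morc1tg/tg (log2 fold change -1.45, SE 0.280, adjusted p = 0.222, edgeR). Ap1s1, a subunit of the AP-1 clathrin adaptor, was at 21.4 and 21.8 RPKM against 1.62 and 3.52 (log2 fold change -2.89, SE 0.580). Gbas, a mitochondrial protein gene, was at 7.16 and 7.27 RPKM against 0.834 and 0.390. Among these genes the RPKM of the controls differed least for Ap1s1 and Gbas. In CPM the controls of Ap1s1 were at 47.9 and 58.2 and those of Gbas at 24.95 and 30.27. The controls of Glo1 differed less in CPM, at 37.2 and 36.4.

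Insig1, a brake on cholesterol synthesis, was at 39.7 and 28.2 RPKM against 14.51 and 11.1, and Npc2, which moves cholesterol out of lysosomes, at 8.54 and 5.92 against 2.49 and 1.51. The others were Nefm (neurofilament, log2 fold change -1.21), Wdr55 (-2.99), Acd (telomere protection, -1.47), Aatf (-1.76), Pebp1 (an inhibitor of Raf kinase, -1.43), Glo1 (glyoxalase, -1.77) and Rpl39 (-1.86), a ribosomal protein gene with many pseudogene copies and so an uncertain level. Dbr1, the enzyme that debranches intron lariats, had 26 and 64 reads in the controls and 0 in both mutants, at least 21.3-fold lower, with 3 counts in the 2 mutants together taken as the limit. In all, 44 genes had at least 15 reads in both controls and 0 in both mutants, and 22 genes the reverse, counts that are not comparable because the controls were sequenced more deeply.

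**Figure D3:**
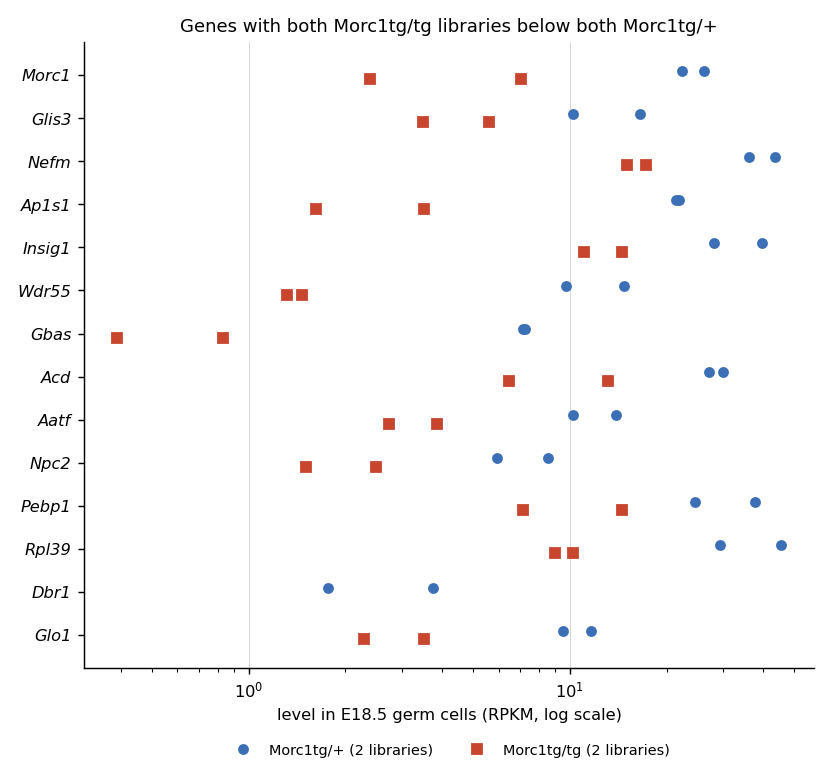
Level in RPKM (log axis) of Morc1 and 13 further genes in each of the 4 E18.5 libraries, circles for Morc1tg/+ and squares for Morc1tg/tg; none passed the E18.5 fit. The squares lie left of the circles for each gene, and the 13 were chosen by that order. Both Morc1tg/tg libraries of Dbr1 are at 0 and have no place on the log axis.

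The levels of the 6 called genes were followed across the stages. Cdkl4, 2610005L07Rik and Chl1 had lower levels in the E18.5 than in the E16.5 controls. Cdkl4 was at 6.69 and 6.43 RPKM in the E16.5 controls and 1.34 and 1.29 in those of E18.5, while the mutants were at 11.8 and 11.3 and then 14.9 and 11.8. Its changes at the 2 stages were not shown to differ (difference 2.71 on the log2 scale, SE 0.823, adjusted p = 0.786, edgeR interaction). 2610005L07Rik was at 16.7 and 18.0 RPKM in the E16.5 controls and at no more than 20.4 in the E16.5 mutants (log2 fold change 0.08 at that stage), both near the 17.8 and 19.9 of the E18.5 mutants. Its change at E18.5 exceeded that at E16.5 by 2.98 on the log2 scale (SE 0.434, adjusted p = 0.0210, edgeR interaction), the 1 gene of 17088 (0.00585%) for which that difference passed. At P2.5 it was at 1.78 to 2.11 RPKM in 3 controls and at 8.09 and 18.3 in 2 mutants, and at P10.5 at 4.15 to 6.39 in 4 controls and 22.1 to 26.6 in 3 mutants.

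Hist1h2bc was at 4.94 and 5.83 RPKM in the E16.5 controls, 13.1 and 9.67 in the E16.5 mutants, and 15.5 and 16.0 in the P2.5 mutants. No other library of sorted germ cells came near the 133 RPKM of the E18.5 mutants, since the next highest, a P2.5 control, was at 24.1. Its changes at E18.5 and E16.5 were not shown to differ (difference 2.49 on the log2 scale, adjusted p = 0.636, edgeR interaction). Odz4 and Chl1 were likewise at their highest in the E18.5 mutants, and Chl1 went from 3.03 and 3.50 RPKM in the E16.5 controls to 1.60 and 0.905 in those of E18.5 and 0 in all 3 of P2.5. Its E16.5 mutants were at 4.78 and 4.57 RPKM. Clca4 was higher in the mutants at E16.5 too, at 29.4 and 22.4 RPKM against 8.30 and 7.74, and was low after birth. At P2.5 it was between 0 and 0.0833 RPKM in 3 controls and at 0 and 1.88 in 2 mutants, and at P10.5 at 0 in all 4 controls and 0.249 to 0.736 in 3 mutants (adjusted p = 7.27e-05, edgeR).

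**Figure D4:**
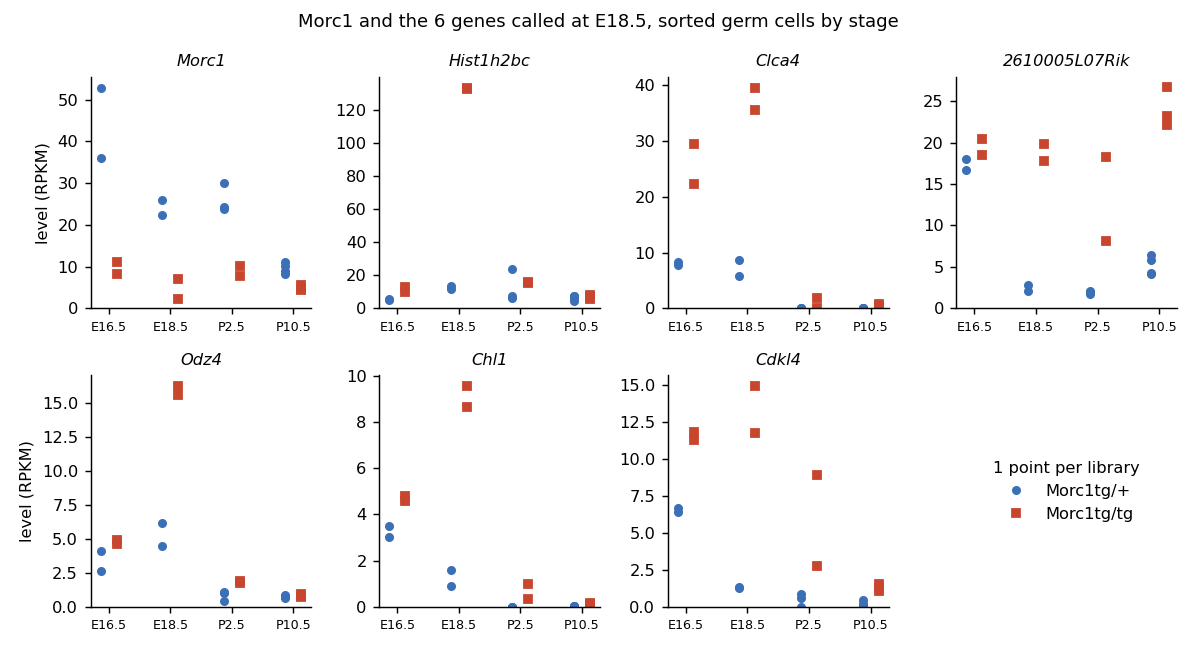
Level in RPKM of Morc1 and of the 6 genes called at E18.5 in each sorted germ cell library of the 4 stages, circles for Morc1tg/+ and squares for Morc1tg/tg, each panel with its own linear axis from 0. The E18.5 controls of Cdkl4, 2610005L07Rik and Chl1 lie below those of E16.5, and Hist1h2bc stands at 133 RPKM in the E18.5 mutants alone.

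The change differed between E18.5 and P2.5 for 3 genes (edgeR interaction, 0.0176% of 17088 genes tested). The log2 fold change was higher at E18.5 than at P2.5 for 1 of them (0.00585%) and lower for 2 (0.0117%). Of the 3 genes, Dock1 and Wdr55 are described. Dock1, an exchange factor for the GTPase Rac, was at 0.623 and 0.364 RPKM in the E18.5 controls and 3.67 and 3.90 in the mutants, whereas at P2.5 it was between 6.32 and 7.76 in all 5 libraries. The difference in its change was 3.21 on the log2 scale (SE 0.444, adjusted p = 0.00990, edgeR). Wdr55, a nucleolar protein of ribosome production, was at 14.7 and 9.73 RPKM in the E18.5 controls and 1.47 and 1.32 in the mutants, but at P2.5 at 21.0 to 28.8 in controls and 26.4 and 36.5 in mutants (difference -3.29, SE 0.519, adjusted p = 0.0297, edgeR). With Morc1tg/+ replicate 2 of E18.5 left out, none of the 3 differences passed, nor did that of 2610005L07Rik from E16.5. Nor did any of the 3 pass when only the libraries of the 2 stages were fitted (920 genes at an unadjusted p under 0.05, edgeR). Without Morc1tg/tg replicate 2, 1 of the 3 passed and that of 2610005L07Rik did not.

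The genes that changed 2 days earlier were then followed in the E18.5 libraries, which share no mouse with those of E16.5. At E16.5, 70 of 16630 genes tested were called (0.421%), 64 higher in Morc1tg/tg (0.385%) and 6 lower (0.0361%). All 64 were tested at E18.5, where 55 of them had a log2 fold change above 0 (85.9%, against 51.1% of all genes), and their median was 0.816 against 0.0164. Both mutants lay above both controls for 43 of the 64, against 17.3% of all genes, and 32 had an unadjusted p under 0.05 in the higher direction, against 3.65%. Clca4 and Cdkl4 were called in the E18.5 fit (0.0416% of all genes were), and 12 of the 64 with the spread of 13 libraries (0.164%), a spread that includes the E16.5 libraries by which the 64 were chosen. Slc14a1, Abcb1a, Tmc2, Dock1 and the collagen gene Col6a3 are among them, with log2 fold changes of 5.25, 3.84, 5.15, 3.08 and 5.23 at E18.5 and of 2.08, 2.15, 0.96, 0.83 and 0.92 at E16.5. Leaving out each E18.5 library in turn gave medians from 0.732 to 0.927, with 54 to 56 of the 64 above 0. The 6 genes lower at E16.5 had a median of -0.60, with 4 below 0, among them Morc1 and the cyclin-dependent kinase inhibitor Cdkn1c. The other 2, Ust (0.42) and Gm9000 (0.41), lay above 0. The 64 higher genes had a median exon length of 5684 bases, against 3761 for all genes tested. Some of the 64, including Atp13a3, Parn, Fgd4 and Slc15a2, lie on chromosome 16 as Morc1 does. Neither the part of length nor that of linkage to the allele was tested.

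**Figure D5:**
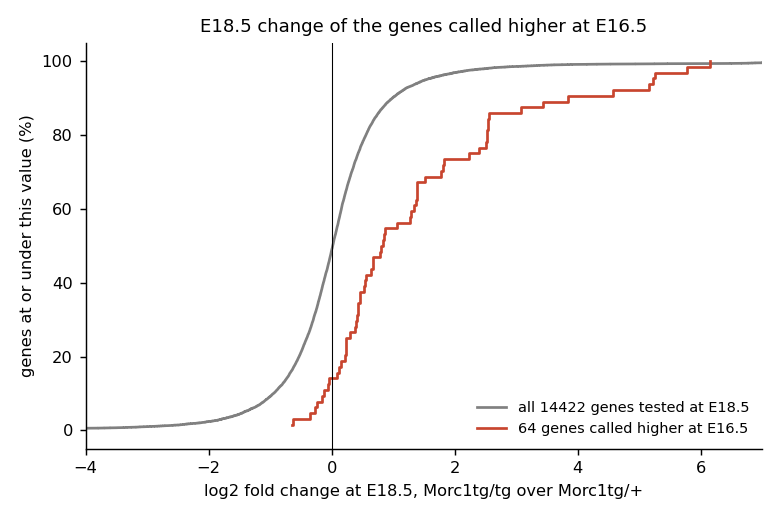
Cumulative share (percent) of genes at or under each log2 fold change of Morc1tg/tg over Morc1tg/+ at E18.5, grey for all 14422 genes tested and red for the 64 genes called higher at E16.5. The red curve lies to the right of the grey one, with a median of 0.816 against 0.0164; the axis ends at -4 and 7, beyond which some genes at 0 in both libraries of a genotype lie.

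The genes called at the later stages were followed in the same way. At P2.5, 7 of 14413 genes were called (0.0486%), 6 higher (0.0416%) and 1, Morc1, lower (0.00694%). At E18.5 all 6 higher ones had log2 fold changes above 0, with a median of 2.80 and both mutants above both controls for 5, against 51.1%, 0.0164 and 17.3% for all genes. They were 2610005L07Rik, Col6a3, the cadherin gene Cdh12, the lectin gene Cd209c, Samd9l, and Ctsh, a cathepsin whose E18.5 value was 0.30. The median of these 6 lay between 2.72 and 3.92 with each E18.5 library left out, with 5 of the 6 above 0 without Morc1tg/+ replicate 1 or without Morc1tg/tg replicate 2, and all 6 otherwise. Their median exon length was 5532 bases, against 3761 for all genes tested at E18.5, and its part was not tested. At P10.5, 901 genes were called higher and 811 lower (6.43% and 5.79% of 14019), from cells sorted in another way. Of the 881 higher ones tested at E18.5, 420 lay above 0 (47.7%), their median was -0.0348, and 4 were called, against 0.0416% of all genes tested. The median ran from -0.0767 to 0.0452 with each E18.5 library left out, and was above 0 only without Morc1tg/+ replicate 1 (461 of 880 above 0). Of the 881, 65 were higher and 28 lower at an unadjusted p under 0.05 in edgeR (3.65% and 2.56% of all genes). With the spread of 13 libraries 11 of the 901 were called higher and 3 lower at E18.5 (0.164% and 0.152% of all genes).

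The transposon silencing machinery was next. Of 26 genes of the piRNA pathway, all 26 were tested and 0 were called in edgeR, with 0 higher and 4 lower at an unadjusted p under 0.05 (3.65% and 2.56% of all genes) and 0 by DESeq2. Their median log2 fold change was 0.00317. Mael was at 200 and 196 RPKM in the controls and 151 and 128 in the mutants (log2 fold change -0.40, adjusted p = 0.774, edgeR). Piwil4, the nuclear PIWI protein MIWI2, was at 21.3 and 22.7 RPKM against 14.7 and 8.88 (log2 fold change -0.83, adjusted p = 0.703, edgeR), and for both genes the mutants lay below the controls without overlap, as for 21.1% of all genes tested. Tdrd9 was at 80.5 and 75.8 RPKM against 78.5 and 73.3.

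Of 18 enzymes and cofactors of DNA methylation tested, 0 were called by edgeR or DESeq2, 1 was higher and 1 lower at an unadjusted p under 0.05 (edgeR, 3.65% and 2.56% of all genes), and their median was 0.0314. Dnmt3l, the cofactor of de novo methylation, was at 38.0 and 39.3 RPKM against 35.6 and 32.6, and Dnmt3a at 37.9 and 50.3 against 46.1 and 36.0. Of 24 genes of histone-based retrotransposon silencing, 0 were called in edgeR and 1 in DESeq2 (Cbx5, heterochromatin protein 1 alpha, log2 fold change 0.59), with 1 higher and 0 lower at an unadjusted p under 0.05 in edgeR and a median of -0.0769. For all genes DESeq2 called 1.26% higher. Of the MORC relatives, Morc2a, Morc3 and Morc4 had log2 fold changes of 0.20, -0.26 and -0.30, and none was called by either tool.

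The sorted cells had the markers of germ cells. Dazl, an RNA-binding protein of germ cells, was at 304 and 280 RPKM in the controls and 305 and 268 in the mutants, and the helicase gene Ddx4 at 66.1 and 58.1 against 65.4 and 50.8. Of the 21 germ cell identity genes tested, 0 were called in edgeR, with 1 higher and 2 lower at an unadjusted p under 0.05 (3.65% and 2.56% of all genes), and their median was -0.207. Kit, a receptor of germ cell survival, was at 13.8 and 6.60 RPKM in the controls and 21.5 and 20.7 in the mutants (log2 fold change 1.20, adjusted p = 0.455 in edgeR, and called by DESeq2 at 0.00129, as 1.26% of all genes were in that direction). Nanos3, which protects early germ cells, had 15 and 45 reads in the controls and 0 in both mutants, at least 14.2-fold lower, and was not called. In bulk RNA, fewer cells of a type and less RNA per cell cannot be told apart.

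Among other programmes, none of the genes tested for spermatogonial stem cells (25), meiotic prophase (23), cell cycle and DNA replication (35), p53 and DNA damage (32), interferon and nucleic acid sensing (24), imprinting (29), dissociation stress (26) or the Y chromosome (8) was called in edgeR. At an unadjusted p under 0.05 these lists had between 0 and 1 gene higher and between 0 and 3 lower, against 3.65% and 2.56% of all genes. DESeq2 called between 0 and 1 higher and between 0 and 2 lower in each, against 1.26% and 0.555%. With the spread of 13 libraries, 1 gene of the cell cycle list (Ccnb1) and 1 of the interferon list were called lower, against 0.152% of all genes, and none higher. Their medians ran from -0.258 for the p53 list to 0.472 for the Y-linked genes. Within the imprinted genes, Cdkn1c, which restrains the cell cycle, was at 102 and 100 RPKM in the controls and 57.1 and 36.7 in the mutants (log2 fold change -1.02, adjusted p = 0.241, edgeR), and the growth factor gene Igf2 at 52.6 and 49.8 against 37.0 and 23.1. Within the interferon list values went both ways: Ifi44 had 6 and 0 reads in the controls and 71 and 116 in the mutants (log2 fold change 5.44, adjusted p = 0.241, edgeR), whereas Irf9, a transcription factor of the interferon response, was at 2.22 and 3.69 RPKM against 0.623 and 0.169.

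The summed markers of other testis cells overlapped between the genotypes in 5 of 6 lists, the exception being the endothelial genes. Median log2 fold changes were 0.390 for the 17 Sertoli cell genes tested (12 above 0), 0.234 for Leydig cells and 0.210 for peritubular and stromal cells. They were 0.426 for the 5 macrophage genes tested, 0.217 for blood and -0.269 for endothelial cells, against 0.0164 for all genes. Summed over 22 Sertoli cell genes the level was 262 and 152 RPKM in Morc1tg/+ and 247 and 208 in Morc1tg/tg, most of it from Dmrt1, which germ cells express too, and Krt18. The 12 Leydig cell genes summed to between 10.0 and 23.1 RPKM, with Insl3 and Hsd17b3 at 0 in all 4 libraries, and the 14 macrophage genes to between 8.64 and 22.8, with C1qa and Lyz2 at 0. Peritubular and stromal genes summed to 134 and 124 RPKM against 128 and 94.8, endothelial genes to 56.9 and 51.1 against 46.9 and 41.5, both mutants lower, and blood genes to 25.3 and 32.7 against 40.9 and 24.8. No gene of these 6 lists was called in edgeR, and 5 had an unadjusted p under 0.05, 4 higher and 1 lower, against 3.65% and 2.56% of all genes. DESeq2 called 1 higher (1.26% of all genes), the blood gene Alas2, with 3 and 0 reads in the controls and 28 and 57 in the mutants.

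Genes around Morc1 come with the allele from the mouse in which the transgene was inserted, and were listed for that reason. Of 69 genes within 5 Mb, 36 were tested, 20 above 0 and 16 below, with a median of 0.0659, and 0 were called in edgeR (4 higher and 1 lower at an unadjusted p under 0.05, against 3.65% and 2.56% of all genes). DESeq2 called 3 of them higher, Alcam, Dzip3 and Zbtb20, against 1.26% of all genes. Zbtb20 was the 1 gene of the window called with the spread of 13 libraries, and whether its value belongs to the loss of MORC1 or to the linked strain background cannot be told apart. Exon length moved with the values on the higher side: the 526 genes higher at an unadjusted p under 0.05 had a median exon length of 5052 bases, against 3745 for the 369 lower ones and 3761 for all genes tested. The part of length in these counts was not tested.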

How the data were processed

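RNA from sorted germ cells was depleted of ribosomal RNA and made into libraries with a kit for low input. The authors trimmed reads to 50 bp, removed ribosomal reads, aligned uniquely to mm9 with Bowtie, counted with HTSeq and deposited read counts per gene and RPKM values (reads scaled to exon length and to mapped reads). Tool versions are not given in the sources used here, nor is whether counting used strand.

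Counts were tested here with edgeR 4.0.16 in R 4.3.3 (TMM, filterByExpr, quasi-likelihood, Benjamini-Hochberg over all genes tested, threshold 0.05, two-sided); the deposited RPKM values served as levels only. Differences between stages were interactions over the 13 reporter-sorted libraries. DESeq2 1.42.0, other scalings and filters, a replicate block and leaving out each library were alternatives, with BLAST+ 2.17.0 for upstream sequence of mm9. The edgeR fits were run on simulated counts with 100 genes changed by log2 1 and 100 by log2 2. The E18.5 fit recovered 7% and 40% of these and called 5 unchanged genes. The fit of the difference from E16.5 recovered 1% and 39% and called 2 unchanged genes. Replicates differed beyond sampling noise (chi-square per gene 16.5 and 9.96) and were kept as separate samples.

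Named genes were Morc1, Tyr, all genes past the threshold, then, to 15 a direction, those of smallest unadjusted p whose mutants lay beyond both controls and that passed with the spread of 13 libraries (adjusted), the leading differences between stages and genes of the lists; some that met the rule are not reported here. Members, lists and tests were chosen with earlier results of these data known. Replicate numbers were not taken as pairs, since no label ties them to a litter or day: deviations of same-numbered mice correlated at -0.023, over 2 pairs.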

Additional observations from a re-analysis of the deposited data

Results flagged for a closer look

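Differences between stages that passed the interaction test are given here. The change of 2610005L07Rik was larger at E18.5 than at E16.5 by 2.98 on the log2 scale, its E16.5 controls being near the level of the mutants. Compared with P2.5, the change of Dock1 was larger at E18.5 by 3.21, and that of Wdr55 differed by -3.29, with log2 fold changes of -2.99 at E18.5 and 0.31 at P2.5. The adjusted p of each (edgeR) was 0.0210, 0.00990 and 0.0297. None of these passed with Morc1tg/+ replicate 2 of E18.5 left out, and the differences from P2.5 did not pass when only the libraries of those 2 stages were fitted. With 2 libraries per genotype no sample could be tested as standing apart within its group.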

How the results depend on the processing

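The count of 6 genes at E18.5 was 7 with DESeq2's size factors in edgeR, 6 with library totals, 9 with a stricter filter and 5 without genes of RNA lacking poly(A). It was 271 by DESeq2, 83 with no filter, 54 with the spread of 13 libraries, 619 with that of 20 and 46 with the replicate block, and 0 to 190 with each library left out: 190 without Morc1tg/+ replicate 1, 59 without Morc1tg/+ replicate 2 and 0 without either Morc1tg/tg library. Morc1 passed with a log2 fold change of -2.32 by DESeq2 and with no filter, -2.32 over 13 and -2.33 over 20 libraries, and -2.42 with the replicate block (adjusted p = 0.00392, edgeR), and ranged from -3.09 to -1.81 with a library left out, passing without either control and not without either mutant. The difference from E16.5, 1 gene, was 35 by DESeq2, 27 with no filter, 45 over 20 libraries, 0 with the replicate block within stage (788 at an unadjusted p under 0.05, edgeR) and 0 to 95 with a library left out (95 without Morc1tg/+ replicate 1, 0 without Morc1tg/+ replicate 2, where 785 had an unadjusted p under 0.05). The difference from P2.5, 3 genes, was 178 by DESeq2, 66 with no filter, 5 with DESeq2's size factors, 201 over 20 libraries, 0 over the 2 stages alone (920 at an unadjusted p under 0.05, edgeR), 0 with the replicate block (1554) and 0 to 242 with a library left out (242 and 0 without the same 2 libraries, the latter with 1540, and 16 and 3 without Morc1tg/tg replicates 1 and 2). Morc1 and the 6 genes kept their direction in each fit that tested them. The balance of higher against lower calls moved: over 20 libraries 279 genes were higher and 340 lower at E18.5, the difference from E16.5 had 0 higher and 2 lower without Morc1tg/tg replicate 2, and that from P2.5 had 203 higher and 39 lower without Morc1tg/+ replicate 1. The median log2 fold change of all genes went from 0.0164 to -0.0327 with library totals. Nothing in the labels says that a replicate number marks a litter or day, and the numbers were not taken as pairs; the 6 genes were also called with the block. Leaving out each E18.5 library for the genes called at other stages was chosen after seeing the data. The causes were not tested. Depth limits genes with few reads: 3 counts are 0.749 to 1.11 CPM in these libraries.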

Other observations

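With the spread of 13 libraries, 54 genes were called at E18.5, and those not yet described, chosen after their values were seen, are given here as values. On the higher side they include Zfhx3, a large homeobox transcription factor with 1398 and 1126 reads in Morc1tg/+ and 1622 and 1859 in Morc1tg/tg (log2 fold change 1.02), Magi3 (0.99), the anchoring protein gene Akap9 (1.06), and Gabbr1, a subunit of the GABA-B receptor with 235 and 242 reads against 363 and 650 (1.62). On the lower side are the cyclin Ccnb1 with 118 and 207 reads against 46 and 20, and Esco2, a cohesin acetyltransferase, with 384 and 393 against 81 and 158. Of the 35 genes tested from the cell cycle and DNA replication list, Ccnb1 was the 1 called in this fit. Pml, the organiser of nuclear bodies, had 61 and 70 reads against 7 and 0, Bloc1s2 42 and 18 against 0 in both mutants, and Timm13, a mitochondrial import protein, 42 and 17 against 0 in both. Dapk2, a kinase of cell death signalling, had 39 and 22 reads against 0 in both mutants, at least 14.3-fold lower. The 28 higher genes had a median exon length of 6790 bases and the 26 lower ones 3066, against 3761 for all genes tested at E18.5, and the part of length was not tested.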
